A study of Arabidopsis thaliana with 12 samples.

Results

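The probes described here were selected on their deposited intensities: above 0 in each of 6 samples of the prors2 mutant (prors2_dark), and exactly 0 in each of 6 wild-type samples (WT2_dark). Of the 3439 probes of the series 51 (1.48%) met both thresholds, and 49 are described, leaving out the probes of GH9B16 and AT3G13150. The values they were chosen by also show their difference between the groups, so that difference is given as a description with no test. The arrays measured total RNA from plants of Arabidopsis thaliana in the Columbia 0 ecotype; the labels name neither the tissue nor the plants' age. The mutant plants were prors2, which the labels describe as lacking prolyl tRNA synthetase, and the others were wild type, and both had been kept dark over night. The groups rest on the sample titles alone, because the source label reads wild type for all 12 samples, and no label says whether samples are separate plants, so their spread may be technical.

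Prolyl-tRNA synthetase joins proline to its tRNA, without which ribosomes cannot read proline codons. Plants need such enzymes in the cytosol and also in chloroplasts and mitochondria, which translate their own genomes, and the Arabidopsis gene PRORS1 is known to supply both organelles. Most proteins of these organelles are encoded in the nucleus. No probe lists PRORS1 (AT5G52520), so the mutant label could not be checked on it. Of the 8 dark-inducible DIN genes and the 5 genes of mitochondrial dysfunction looked for, 0 had a probe.

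The arrays as a whole also differed. The number of probes at 0 ran between 431 and 609 in prors2 samples and between 746 and 926 in wild-type samples, and the sample medians between 0.240 and 0.403 in prors2 and between 0.0620 and 0.0852 in wild type. The highest deposited value, 100, was reached by 2 to 3 probes per prors2 sample and by 5 to 6 per wild-type sample. The summed intensity was between 2764 and 3404 in prors2 and between 2556 and 3032 in wild type, and the number of arrays limits the precision. Neighbouring sample numbers (1 with 2, 3 with 4, 5 with 6) were alike, with correlations of log2 intensity between 0.954 and 0.986 in prors2, against 0.852 to 0.913 for the other pairs of prors2 samples. In wild type the ranges were 0.910 to 0.942 and 0.867 to 0.911. Each group may therefore hold fewer than 6 independent samples.

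A probe at 0 in all wild-type samples was more often at 0 in prors2 too than detected there throughout. Of 301 probes at 0 in all 6 wild-type samples, 158 were at 0 in all 6 prors2 samples, 92 were above 0 in some of them and 51 (16.9%) in all. Of 355 probes at 0 in all 6 prors2 samples, 1 met the opposite pattern, probe 49, with no listed gene. It was at 0 in all prors2 samples and had 0.0389, 0.112 and 0.150 (lowest, median, highest) in wild type.

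Many probes lay just outside the rule. There were 52 probes above 0 in all prors2 samples and in 1 wild-type sample, whose single wild-type value was 0.00124, 0.0186 and 0.386 (lowest, median, highest). Another 15 were above 0 in 5 prors2 samples and at 0 in every wild-type sample. Just inside the rule, 4 members had a prors2 value under 0.01, the lowest being 0.00102 for probe 158. At the other end, 26 members were above 0.1 in every prors2 sample.

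In prors2 the members were dim. Their mean intensities over the 6 prors2 samples had a median of 0.275 and ran between 0.0509 and 0.865, against a median of 0.444 for the 2693 other probes above 0 in all prors2 samples. Within the prors2 arrays the median member stood at percentile 42.0 of all probes, with a range of 17.8 to 81.8. When the 821 dimmest probes of each prors2 sample were taken as not detected, which is the mean number at 0 in wild type, 25 of the 49 members still met the rule and 24 did not. These 25 include 4 of the 8 members with 1 listed gene, 5 of the 12 with several and 16 of the 29 with none.

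Among members with 1 listed gene, AT3G11150, of the 2-oxoglutarate-dependent oxygenases, a class of enzymes that oxidise hormones and other metabolites, had the highest level. Its intensity was 0.632, 0.767 and 1.20 (lowest, median, highest) in prors2 and 0 in every wild-type sample. All prors2 samples lay within a 2-fold range, with 5 and 6 the highest. For this and the other members, more RNA per cell, more cells expressing the gene and the difference between whole arrays cannot be told apart. AT2G14660 had 0.388, 0.635 and 1.40 in prors2 and 0 in wild type. There samples 1 and 2 stood apart at 1.40 and 1.38, above the other four.

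AT1G05340 encodes a small cysteine-rich transmembrane module protein (CYSTM), a family known for induction by stress. It had 0.276, 0.403 and 0.610 in prors2 and 0 in wild type, with samples 5 and 6 the highest. AT4G23110 had 0.296, 0.411 and 0.529 in prors2, a narrow range in which 5 and 6 were again highest, and 0 in wild type. These 4 genes were also above the matched limit on detection in every prors2 sample, which the next 4 were not.

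AT5G25990 lies beside the myrosinase gene TGG2 in the TAIR10.1 gene table. It had 0.0491, 0.112 and 0.397 in prors2 and 0 in wild type, and samples 3 and 4 were its lowest. AT3G26730, of the RING finger proteins, many of which attach ubiquitin to other proteins, had 0.0393, 0.0851 and 0.303 in prors2 and 0 in wild type. AT3G57630, of the exostosin family of glycosyltransferases, had 0.0185, 0.140 and 0.228 in prors2 and 0 in wild type. In both the lowest value was that of sample 4. AT4G37230, a relative of PsbO, the protein that stabilises the manganese cluster of photosystem II, was the dimmest member. Its intensity was 0.0155, 0.0558 and 0.0684 in prors2, so that it lay just above 0 in all 6 samples, and 0 in wild type.

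Another 12 members list several genes, 8 of them 2 genes and 4 of them 3, and their signal cannot be assigned to one of these. Some list genes of protein families known from organelles, though the share of such genes over all probes was not counted. The probe of AT4G36580 and AT2G18330, AAA-type ATPases of the ATAD3 kind, which is known from mitochondria, had 0.223, 0.484 and 0.621 in prors2 and 0 in wild type. It was the brightest member with several genes, and samples 3 and 4 were low. The probe of AT1G80620 and AT1G15810, which encode proteins of the S15 type of ribosomal protein, had 0.0171, 0.0429 and 0.150 in prors2 and 0 in wild type. It was among the dimmest members, and samples 5 and 6 stood above the rest.

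Another 3 of these members list genes with RING finger, LON-type or ubiquitin-associated domains. How often such genes occur over all probes was not counted. The probe of AT5G38895, AT5G15790 and AT3G02290, all RING finger genes, had 0.201, 0.287 and 0.733 in prors2 and 0 in wild type. Samples 1 and 2 stood far above the other four. The probe of AT1G75460, AT1G19740 and AT1G18660, which share a domain with LON proteases, had 0.0241, 0.156 and 0.250 in prors2 and 0 in wild type. The probe of AT5G12120 and AT2G26920, which encode ubiquitin-associated domain proteins, had 0.141, 0.230 and 0.426 in prors2 and 0 in wild type. In these probes the samples that were lowest differed, 4 in the first and second and 3 in the third.

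The next 3 members list genes of enzyme and glycoprotein families. The probe of AT1G26160 and AT2G23820, of the metal-dependent phosphohydrolases, had 0.189, 0.347 and 0.450 in prors2 and 0 in wild type, with sample 3 the lowest. The probe of AT1G44542 and AT4G34180, of the cyclase family, had 0.0522, 0.130 and 0.165 in prors2 and 0 in wild type. The probe of AT1G52330 and AT4G13270, of the late embryogenesis abundant hydroxyproline-rich glycoproteins, had 0.237, 0.310 and 0.458 in prors2 and 0 in wild type. Its prors2 values lay within a 2-fold range.

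The remaining 3 probes with several genes were all dim. The probe of AT1G13970, AT5G39430 and AT3G29180, of a protein family of unknown function, had 0.0138, 0.121 and 0.205 in prors2 and 0 in wild type. The probe of AT1G33780, AT3G29240 and AT3G19780 had 0.0260, 0.0870 and 0.181 in prors2 and 0 in wild type. In both, samples 3 and 4 were lowest. The probe of AT5G05360 and AT2G38450 had 0.0428, 0.0893 and 0.299 in prors2 and 0 in wild type, with samples 5 and 6 the highest.

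For 29 members (59.2%, against 54.6% of all probes) the annotation lists no gene. Their mean prors2 intensities ran between 0.0541 and 0.537 with a median of 0.282, close to the median of 0.287 for members with 1 gene and above the 0.206 for members with several. The brightest were probe 4588 with a mean of 0.537 ± 0.107 in prors2, probe 897 with 0.483 ± 0.294 and probe 937 with 0.458 ± 0.182 (SD, n = 6), each at 0 in wild type. The dimmest were probe 2247 with 0.0825 ± 0.0492 in prors2, probe 1825 with 0.0608 ± 0.0582 and probe 161 with 0.0541 ± 0.0332 (SD, n = 6), each at 0 in wild type. The SD of probe 4588 was the smallest of these 6 relative to its mean.

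Members varied more between the prors2 samples than other probes did. Their SD was 48.7% of the mean at the median, against 27.2% for the other probes above 0 in all prors2 samples, which were also brighter. Between the 3 sets of consecutive numbers the highest set mean was 2.60 times the lowest at the median of the members and 1.71 times at the median of the other probes. A difference over 2-fold was seen in 33 members (67.3%) and in 35.7% of the others. No test was made of these differences.

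The members did not follow one another across the prors2 samples. Samples 5 and 6 were highest in 29 members, 1 and 2 in 19 and 3 and 4 in 1 (probe 2247), whereas among the other probes the shares were 42.4%, 50.7% and 6.91%. Samples 3 and 4 were lowest in 38 members (77.6%, against 64.2% of the other probes) and 1 and 2 in 11. The whole arrays of samples 3 and 4 were also dimmer, with medians of 0.323 and 0.327 for the other probes, against 0.468 to 0.516 in the remaining prors2 samples. With the prors2 samples scaled to one median, a setting chosen after seeing the data, 5 and 6 were highest in 19 members, 1 and 2 in 16 and 3 and 4 in 14, and the lowest were 1 and 2 in 26 members and 3 and 4 in 17. On that scale 5 and 6 were highest in 25.2% of the other probes (38.8% of members), 1 and 2 in 30.7% (32.7%) and 3 and 4 in 44.1% (28.6%). Lowest were 1 and 2 in 44.1% of the other probes (53.1% of members) and 3 and 4 in 26.1% (34.7%). Within consecutive numbers the median absolute log2 difference was 0.30 for members and 0.14 for the other probes.

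Second probes that list a gene of a member are described for 6 members. The rule was applied to these probes too, and they did not meet it. A second probe above 0 in all prors2 samples therefore had to be above 0 in at least 1 wild-type sample. All 6 of these probes were above 0 in at least 2 wild-type samples, so the deposited 0 holds for the member probe and not for every probe of the gene. For 1 of the 6 the annotation lists further genes as well. Every prors2 value lay above every wild-type value in 4 of the 6, while 45.7% of all 3439 probes did so as deposited. In the fit over all probes (limma on quantile-normalized log2 intensity, values at 0 left out) 5 of the 6 were tested. Of these 2 passed as higher and 0 as lower, and at an unadjusted p under 0.05 probe 3124 was lower. Over all 2685 probes tested 25.0% passed as higher and 20.6% as lower, 671 and 554 probes. That split was 1870 and 144 before any normalization and 653 and 905 with median centring of the samples.

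The clearest second probe was that of the CYSTM gene AT1G05340. Probe 1425, which lists AT1G56060, AT2G32210, AT2G32200 and AT2G32190 as well, had 0.918, 0.978 and 1.59 (lowest, median, highest) in prors2 and 0.0161, 0.0299 and 0.105 in wild type. All 6 prors2 samples were far above all 6 wild-type samples, with 5 and 6 the highest, as on the member probe. After normalization the log2 difference was 3.68 ± 0.41 (standard error; limma, adjusted p = 3.1e-05), and 3.68 with consecutive numbers averaged (adjusted p = 0.00715). The genes on this probe cannot be told apart, and the other four are not on the member probe.

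Probe 2639 lists AT1G13970 alone, one of the 3 genes of a member. It had 0, 0.310 and 0.678 in prors2 and 0.0102, 0.0231 and 0.0656 in wild type. The groups overlapped because prors2 samples 3 and 4 were at 0, and these were also the lowest samples of the member. Its log2 difference was 2.10 ± 0.46 (standard error; limma, adjusted p = 0.0037), a fit in which both zeros are left out. With zeros kept and a pseudocount it was 0.16 (limma, adjusted p = 0.812).

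The other four second probes did not pass. Probe 3614 (AT5G12120 and AT2G26920) had 0.187, 0.321 and 0.408 in prors2 and 6.2e-04, 0.0341 and 0.0880 in wild type, with no overlap. Its log2 difference was 1.79 ± 0.89 (standard error; limma, adjusted p = 0.117), but 0.86 without wild-type sample 1, its lowest value (adjusted p = 0.0859), and 0.38 with zeros kept and a pseudocount (adjusted p = 0.295). Probe 3643 (AT5G05360 and AT2G38450) had 0.134, 0.182 and 0.338 in prors2 and 0, 0.0105 and 0.0393 in wild type, again without overlap. The log2 difference, which leaves out 3 wild-type values at 0, was 0.55 (limma, adjusted p = 0.305). Both passed as higher before normalization (limma, adjusted p = 0.00358 for probe 3614 and adjusted p = 1.9e-04 for probe 3643), on a scale where the median difference over all probes was 1.49. Probe 3643 also passed with median centring (1.12, limma, adjusted p = 0.0302).

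Probe 4264 (AT1G26160 and AT2G23820) had too few wild-type values above 0 for the fit that leaves zeros out with 3 values required in each group. It had 0.0327, 0.0967 and 0.216 in prors2 and was at 0 in 4 wild-type samples, with 0.0239 as the highest, so the groups did not overlap. With 2 values required its log2 difference was 0.18 (limma, adjusted p = 0.837), and with zeros kept and a pseudocount 0.45 (adjusted p = 0.190).

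Probe 3124 (AT1G75460 and AT1G19740, with LON-type domains) had 0.137, 0.325 and 0.544 in prors2 and 0.0991, 0.155 and 0.213 in wild type. Samples 3 and 4 of prors2 overlapped with wild type. After normalization its log2 difference was -0.73 (limma, adjusted p = 0.0551), and before it 0.90 (adjusted p = 0.0393). It passed as lower with zeros kept and a pseudocount (limma, adjusted p = 0.0104), with median centring (adjusted p = 0.0460), and without prors2 sample 1 or 2 or wild-type sample 3 (adjusted p = 0.0371, 0.0209 and 0.0487), and with the replicate block (adjusted p = 0.0265). It did not pass with consecutive numbers averaged (limma, adjusted p = 0.251).

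A single gene within 2 loci of a member with 1 gene had a probe of its own, CCL (AT3G26740), directly beside AT3G26730. Its intensity was 1.58, 2.49 and 3.05 in prors2 and 1.83, 2.05 and 2.20 in wild type, with overlapping groups. The log2 difference was 0.22 (limma, adjusted p = 0.381). With median centring it was -1.41 (limma, adjusted p = 5.2e-06), so its direction turned with the scale.

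Some members lay close to one another in the probe numbering, which the rule did not use. Another member lay within 5 probe numbers for 15 of the 49 (30.6%), and a member lay that close to 8.44% of all other probes and 9.52% of the other probes at 0 in all wild-type samples. Directly consecutive numbers were seen in 8 members (16.3%), such as probes 3080 and 3081. A member lay that close to 1.83% of all other probes and 2.38% of the other probes at 0 in all wild-type samples. No source used here says whether the numbers follow positions on the array.

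Members also had bright probes close by in this numbering. The probe within 2 numbers of a member that was brightest in wild type had a median intensity of 3.70 in prors2 and 4.29 in wild type. Wild-type values alone chose this probe, so its comparison between the groups leans towards wild type. One number before a member the mean intensity was 3.06 in prors2 and 3.11 in wild type, against 3.84 in prors2 and 4.27 in wild type one number before the other probes at 0 in all wild-type samples. One number before a probe above 0 in at least 1 wild-type sample it was 0.608 in prors2 and 0.397 in wild type. The medians in wild type at this place were far lower and in another order. They were 0.263 for members, 0.0472 for the other probes at 0 and 0.0738 for the rest. Near the 252 other probes at 0 in all wild-type samples, the probe brightest in wild type within 2 numbers had medians of 0.960 in prors2 and 0.624 in wild type. Near the probes above 0 in at least 1 wild-type sample these medians were 0.623 and 0.297. An intensity over 1 in wild type was reached next to 35 members (71.4%), 42.9% of the other probes at 0 and 21.0% of the rest. The window and the limit of 1 were chosen with the values known, and the part of bright neighbours in the zeros was not tested.

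The remaining 14 members had no probe over 1 in wild type within 2 numbers. Their mean prors2 intensity had a median of 0.313, against 0.247 for the 35 with one. They include AT2G14660, AT1G05340, AT4G23110, AT5G25990 and AT4G37230. The limit was not applied to prors2, where some of them had a neighbour over 1. An example is probe 159 near AT5G25990, with 1.39 in prors2 and 0.123 in wild type. Among the second probes 1 of 6, probe 2639, had a neighbour over 1 in wild type, with 3.40 there. The neighbour of AT3G11150 that was brightest in wild type was probe 964, with 2.38 ± 0.760 in prors2 and 3.46 ± 0.628 in wild type (SD, n = 6 each).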

How the data were processed

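The values are the deposited intensities of the series' value table, 12 samples and 3439 probes, linear and in arbitrary units. They run from 0 to a ceiling of 100, which 2 to 3 probes reach per prors2 sample and 5 to 6 per wild-type sample. No source used here states the array type, scaling or background treatment. Genes are those of the platform annotation, matched by gene ID to the TAIR10.1 table. No sequence was used, so the planned search for related proteins and the classes by description were not run. Roles of genes are background.

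The deposited intensities at 0 were treated as missing, taken to log2 and quantile-normalized. Tests covered the 2685 probes above 0 in 3 or more samples of both groups, 6 against 6, and used limma 3.58.1 in R 4.3.3 (lmFit, eBayes, 2-sided, Benjamini-Hochberg over all probes tested, threshold 0.05); no member enters this fit. An alternative kept zeros with a pseudocount of 0.05. The fit was tested on simulated data. Means and ranges came from pandas 2.3.3. The p-values set the difference between groups against the spread between samples, which may be technical. If consecutive numbers are not independent samples, the p-values are too small.

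The members, lists and tests were chosen with earlier results of these data known. Of the members with several genes, 1 is not reported by name or value, nor is its second probe. Named otherwise are all genes that members list, the 3 brightest and 3 dimmest members without a gene, second probes and measured chromosome neighbours.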

Additional observations from a re-analysis of the deposited data

Results flagged for a closer look

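Of 60 groups of 6 values examined on the log2 scale, 8 had a sample far from the others. The limit used flags about 1 in 20 groups of independent, normally distributed values. Log2 values of dim probes from samples alike in consecutive numbers need not be such values, so the count cannot be set against that rate. In 7 of the 8 a prors2 value of a member was low. Sample 4 had 0.00460 for probe 161, where the others lay between 0.0356 and 0.10, and 0.0241 for the probe of AT1G75460, AT1G19740 and AT1G18660, with the others between 0.113 and 0.250. Sample 2 had 0.00168 for probe 1226 (others 0.139 to 0.737), 0.00296 for probe 2068 (others 0.0747 to 0.184) and 0.0503 for probe 3154 (others 0.103 to 0.153). Sample 3 had 0.189 for the probe of AT1G26160 and AT2G23820 (others 0.325 to 0.450), and sample 1 had 0.0155 for AT4G37230 (others 0.0518 to 0.0684). The other far sample was wild-type sample 1 on probe 3614, with 6.2e-04, with the rest of wild type between 0.0180 and 0.0880.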

How the results depend on the processing

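The count of 51 probes that met both thresholds fell to 26 with the number not detected in prors2 matched to wild type, to 24 with every prors2 value above the wild-type median of values above 0, and to 27 above the 10th percentile of values above 0. It was 126 with 5 of 6 samples required, and 211, 261 and 209 within numbers 1 and 2, 3 and 4, and 5 and 6. Leaving out 1 sample gave 51 to 66. Settings that require fewer samples only loosen the rule, so they could not lower the count. The median prors2 intensity of 0.275 was 0.206 over members with several genes and 0.262 to 0.294 without 1 sample. The median percentile of 42.0 was 29.5 among probes above 0 in all prors2 samples and 41.9 to 44.0 without 1 sample. Limma's counts of 671 higher and 554 lower were 1870 and 144 before normalization, 337 and 211 with consecutive numbers averaged, 905 lower with median centring, and 604 to 653 higher and 506 to 542 lower without 1 sample. With the replicate block they were 669 and 539, and among the second probes and CCL it changed only the call of probe 3124 (-0.73, limma, adjusted p = 0.0265), which did not pass with consecutive numbers averaged (adjusted p = 0.251). The samples were not taken as paired in the main fit. Deviations of same-numbered samples correlated at 0.0477 to 0.154, all positive but weak, and 3 of 6 prors2 samples correlated best with their own number. Pairing by number therefore remains possible, and the fit with the replicate block allows for it. Directions turned for probe 3124 (0.90 before normalization) and CCL, probe 2653 (-1.41 with median centring). The cause was not tested. Signal over background is unknown, which limits what a value at 0 shows.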
